A study of Solanum tuberosum with 8 samples.

Results

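The genes described here are the 351 loci of potato (Solanum tuberosum) whose printed start lies on chromosome 3 from 16 to below 21 Mb, among 35091 loci in the authors' deposited table. Of these members, 272 with the status OK were tested by the authors, while 77 have NOTEST and 2 have HIDATA. The stretch was singled out because it holds some of the most abundant transcripts of dormant meristems, so the levels and ratios of its members are the values that chose it, and they are given as a description. No test was run on the stretch as a whole.

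Tubers of the cultivar Russet Burbank were grown in the field, and RNA of their meristems was sequenced in 8 samples. Dormant meristems (4 samples) were cut about 2 weeks after harvest, in the fall of 2005, 2007, 2009 and 2010. The 4 nondormant samples came from tubers kept at 4 °C until sprouting began, and were taken in the spring of 2006, 2008, 2010 and 2011. Dormancy, the length of storage, the cold of the store and the season of sampling change together between the groups and cannot be told apart. The calendar years of sampling differ between the groups, apart from 2010. By replicate number, however, each nondormant sample was taken in the spring after the fall of the dormant sample of that number. Whether such pairs share a harvest is not stated in the sources used here. The authors' table holds 1 value per gene and group, read as FPKM (a level per transcript length and per mapped fragment), so no value of a single sample and no replicate error can be given, and read depth is unknown. A call is a deposited q of 0.05 or less in the authors' table, and every ratio is dormant over nondormant unless a sentence says otherwise. Where levels of a locus are given as a pair, the nondormant one comes first.

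After harvest, the buds of a potato tuber stay dormant for a time and do not grow out even where conditions would allow it. The end of dormancy is seen when a bud swells and a sprout emerges, and the tissue then turns from maintenance and storage to cell division and growth. Tubers are also known for a few very abundant protein families, among them patatins and protease inhibitors, and plant genes of such families often lie beside each other in clusters. The table gives identifiers without gene names, and 0 of them matched the reference gene table, so no function, family or tissue marker is assigned to any locus, and the labelled tissue could not be checked against markers. Positions are printed as the table gives them, with no genome build named. No sequences of these loci were analysed here.

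More of the called members were higher in dormant than in nondormant meristems. By the authors' deposited q, 34 of the 272 tested members were called, 24 higher in dormant and 10 higher in nondormant meristems. Over all 19664 tested genes 10.9% were called, 3.75% higher in dormant and 7.17% higher in nondormant meristems. On the rest of chromosome 3, which has 1717 tested genes among 2764, these shares were 10.4%, 3.55% and 6.87%. The members' shares of 12.5% in all, 8.82% higher in dormant and 3.68% higher in nondormant meristems thus had the opposite balance of directions. Because the stretch was chosen on this contrast, nothing further is read from that balance. At a deposited q of 0.01 or less the calls numbered 11 and 3, and without the abundant groups at both ends, described further on, they numbered 14 and 10. In RNA of a bulk tissue such as excised meristems, fewer cells of a type and less RNA per cell cannot be told apart.

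Summed abundance was higher in dormant meristems. The tested members held 4.93% of the summed FPKM of all tested genes in dormant and 1.97% in nondormant meristems, and their summed FPKM was 2.53 times as high in the dormant state. For the rest of chromosome 3 the shares were 6.90% and 6.81%, with a ratio of sums of 1.02. The median log2 ratio was 0.21 over the members, 0.06 over the rest of chromosome 3 and 0.05 over all tested genes. Higher dormant than nondormant values, called or not, were listed for 165 of 272 members (60.7%), against 52.9% of the rest of chromosome 3. The typical member therefore differed little, and a small number of loci carried the summed difference.

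**Figure D1:**
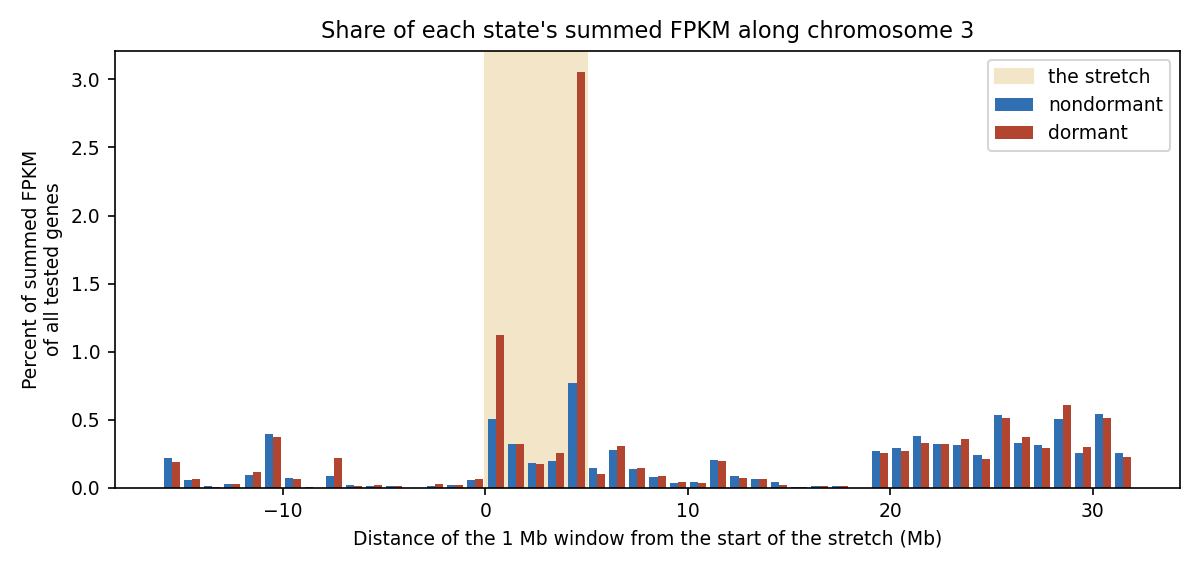
Percent of the summed FPKM of all tested genes held by each 1 Mb window of chromosome 3, in nondormant and dormant meristems, by distance from the start of the stretch (shaded). The last window of the stretch held 3.06% of the dormant sum and 0.77% of the nondormant sum, and the first window 1.12% and 0.50%.

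The excess in dormant meristems sat at both ends of the stretch. The window from 20 to 21 Mb summed to 6461 FPKM in the nondormant and 26021 FPKM in the dormant state, a ratio of 4.03 and the highest of the 48 windows of 1 Mb on the chromosome. The window from 16 to 17 Mb summed to 4243 and 9525 FPKM, a ratio of 2.25. Between them, the sums of the states were almost equal from 17 to 18 Mb (2735 and 2730 FPKM) and from 18 to 19 Mb (1510 and 1511 FPKM), and their ratio was 1.33 from 19 to 20 Mb. The median log2 ratio of the members was 0.49 in the window from 20 Mb, 0.22 in that from 16 Mb, and between -0.05 and 0.20 in the 3 windows between. Outside the stretch, a ratio of sums above 2 was found in 1 window, from 8 to 9 Mb, with 744 and 1873 FPKM. The chromosome was also cut into 10 windows of 5 Mb from 1 Mb to its end, the last one partly filled. Among these the stretch had the highest ratio of sums, and the next highest was 1.64 from 6 to 11 Mb. This grid has the stretch as 1 of its windows. Because the stretch was chosen for abundant dormant transcripts, its rank is only a description.

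**Figure D2:**
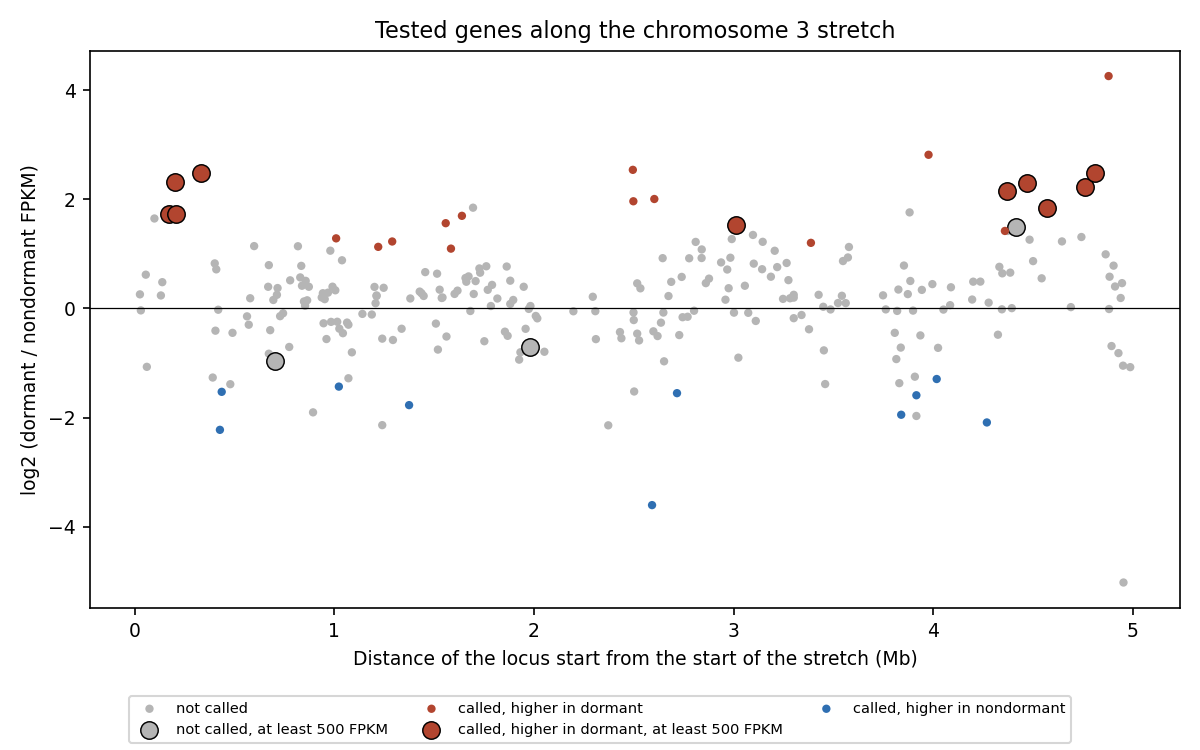
The log2 ratio of dormant over nondormant FPKM of each tested member against the distance of its start from the start of the stretch in Mb. Large points have at least 500 FPKM in either state; called members are coloured by direction, and 9 of the 10 large called points lie in a group at either end.

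Only 8 tested members reached 1000 FPKM in dormant meristems, and all 8 were called higher there. The authors' deposited table lists 83 such tested genes in all, 62 of them with the higher value in dormant meristems. Calls were made for 20 of the 83, all 20 higher in dormant meristems, so the stretch holds 8 of the 20. A limit on the dormant level favours this direction, so nothing is read from it. Together these 8 members made up 3.55% of all FPKM summed over dormant and 0.77% of that summed over nondormant meristems. Their dormant levels ran from 1325 to 10283 FPKM, a 7.76-fold range. Their nondormant levels ran from 375 to 1835 FPKM, a 4.89-fold range. Their ratios kept within 3.31-fold and 5.61-fold. Among all tested genes, 18 had at least 1000 FPKM in dormant meristems and a dormant value at least 3-fold higher. Of these, 8 lay in the stretch and 1 on the rest of chromosome 3. Both limits use the kind of values that chose the stretch, so these counts only describe it.

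The first group lies from 16174064 to 16332897, a span of 159 kb with 9 genes, 5 of them tested and all 5 called higher in dormant meristems. Its ends were set by the dormant-higher calls in the first 500 kb of the stretch. The locus from 16174064 to 16174890 had a nondormant level of 400 and a dormant level of 1325 FPKM by the authors' deposited table (3.31-fold, q = 0.0228). The locus from 16201969 to 16202530 stood at 656 and 3268 FPKM by the authors' deposited table (4.99-fold, q = 0.00179). That q is the smallest the table holds, and 8 of the 24 dormant-higher members have it. Only 3.48 kb further, the locus from 16206009 to 16206797 is listed at 601 and 1986 FPKM by the authors' deposited table (3.31-fold, q = 0.0325). The locus from 16217257 to 16218031 was far less abundant, at 12.4 and 62.9 FPKM by the authors' deposited table, and had a like ratio (5.06-fold, q = 0.00179). The last locus of the group, from 16332045 to 16332897, had 111 and 625 FPKM by the authors' deposited table (5.61-fold, q = 0.00179). Levels within this group thus differed more between loci than between the states, while every ratio lay above 3-fold. The remaining 4 genes of the group have the status NOTEST.

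The second group lies from 20367569 to 20808427, a span of 441 kb with 23 genes, and holds the tested gene with the highest dormant level. Calls were made for 5 of its 16 tested genes, each higher in the dormant state. The ends of this group were set by dormant-higher calls of at least 1000 FPKM in dormant meristems, in the last megabase of the stretch. PGSC0003DMG400010146, from 20807645 to 20808427, had a nondormant level of 1835 and a dormant level of 10283 FPKM by the authors' deposited table (log2 ratio 2.49, 5.61-fold, q = 0.00179). It ranked 1 by dormant and 25 by nondormant level among tested genes, and by itself made up 1.21% of the summed dormant FPKM. PGSC0003DMG400010134, from 20471280 to 20471871, stood at 1158 and 5725 FPKM by the authors' deposited table (log2 ratio 2.31, 4.94-fold, q = 0.00179). It ranked 3 by dormant and 67 by nondormant level. These were the only 2 tested members above 1000 FPKM in nondormant meristems, so the 2 most abundant tested members were the same loci in both states.

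The other 3 called genes of the second group were also in the top 35 by dormant level. The locus from 20367569 to 20368402 had a nondormant level of 693 and a dormant level of 3090 FPKM by the authors' deposited table (4.46-fold, q = 0.00179). The locus from 20570534 to 20571408 had 777 and 2778 FPKM by the authors' deposited table (3.58-fold, q = 0.0265). For the locus from 20757925 to 20758748 the authors' deposited table lists 375 and 1750 FPKM (4.67-fold, q = 0.00179). Unlike the first group, which was drawn by another rule, this one holds tested but uncalled genes among the called ones. Neighbouring called genes are 48.9 to 187 kb apart, and the closest pair, from 20757925 and from 20807645, has no tested gene in between.

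The 11 uncalled genes of the second group reached a nondormant level of 277 FPKM and a dormant level of 780 FPKM. Each had a dormant value above its nondormant one, but in 2 of them the log2 ratio was under 0.1, and 6 were at least 2-fold higher. The locus from 20416727 to 20418116 was the most abundant of them, with 277 and 780 FPKM by the authors' deposited table, and missed the call (2.82-fold, q = 0.165). The locus from 20396699 to 20397625 had 3.30 and 9.49 FPKM by the authors' deposited table and a ratio of like size (2.88-fold, q = 0.153). Abundance was therefore not sufficient for a call in this group. The deposited q of these 11 genes ran from 0.133 to 0.998.

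Among the untested genes of the second group are the only 2 loci of the whole table with the status HIDATA, a word that the program Cuffdiff gives to loci with too many fragments to process. The locus from 20611551 to 20612220 has 1.74 FPKM in the nondormant column and 0 in the dormant one of the authors' deposited table. For the locus from 20707647 to 20708500 the authors' deposited table lists 1.27 FPKM and 0. Under this status the listed values are not read as levels, so these loci enter no count or sum of tested genes. The other 5 untested genes of the group have the status NOTEST. Whether neighbouring loci of either group are alike in sequence, and how reads that match several of them were counted, are not stated in any source used here, so the split of reads between them is uncertain.

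**Figure D3:**
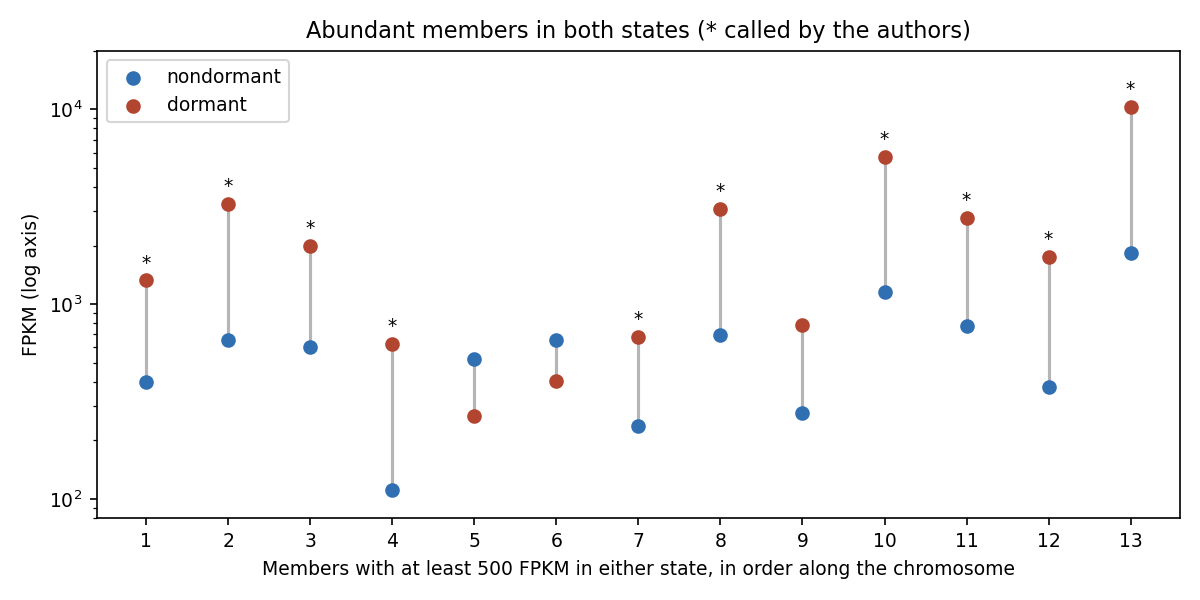
FPKM (log axis) of the 13 members with at least 500 FPKM in either state, in order along the chromosome, with nondormant and dormant values joined by a line and authors' calls starred. The dormant value is the higher in 11 of the 13 loci, and the 2 exceptions lie between the groups.

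Of the 13 members with at least 500 FPKM in either state, 10 were called, all higher in dormant meristems, and 9 of the 10 belong to both groups just described. The tenth lies between them, from 19011571 to 19012776, with a nondormant level of 236 and a dormant level of 682 FPKM by the authors' deposited table (2.89-fold, q = 0.00973). The 2 abundant members with a higher nondormant value were not called. The locus from 16703567 to 16706982 had a nondormant level of 520 and a dormant level of 265 FPKM by the authors' deposited table (q = 0.122). The locus from 17981094 to 17981858 had 653 and 401 FPKM by the authors' deposited table (q = 0.267). On the rest of chromosome 3, 18 genes reached 500 FPKM in either state, of which 3 were called higher in dormant and 1 higher in nondormant meristems. Over all tested genes 325 reached this level, and 69 of them were called (21.2%). Of these calls 36 were higher in dormant and 33 higher in nondormant meristems.

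Most tested genes of both groups are short loci. The 10 called genes of the groups have printed spans of 562 to 875 bp. Over all called dormant-higher genes of the table the median span is 2518 bp, and over the tested members it is 3464 bp. A span of at most 900 bp, a limit chosen after these spans were seen, was found in 16 of the 21 tested genes of both groups and in 16 of the 251 other tested members. On the rest of chromosome 3 it was found in 149 of 1717 tested genes (8.68%). Of the 32 short tested members, 11 were called, all 11 higher in dormant meristems. These 11 include the 10 called genes of the groups, whose ends were set by such calls, so nothing is read from their direction. The 240 longer members had 13 calls in that direction and 10 in the other. Of the 149 short tested genes on the rest of chromosome 3, 6 were called higher in dormant and 14 higher in nondormant meristems, and their median log2 ratio was 0.03. Among all 1880 tested genes of at most 900 bp the median log2 ratio was 0.03. Of these, 4.47% were called higher in dormant and 8.99% higher in nondormant meristems.

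**Figure D4:**
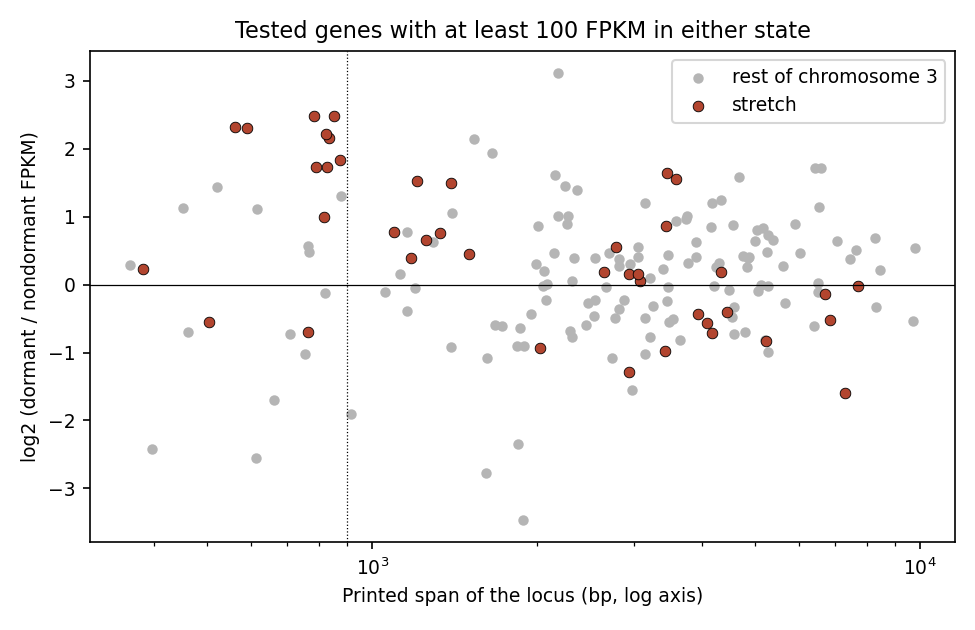
The log2 ratio of dormant over nondormant FPKM against the printed span of the locus (bp, log axis) for tested genes of chromosome 3 with at least 100 FPKM in either state, with a dotted line at 900 bp. Of the 13 short members of the stretch 11 lie above 0, against 7 of the 14 short genes of the rest of the chromosome.

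Between the groups lie 4.03 Mb with 231 tested genes, 13 of them called higher in dormant (5.63%) and 10 higher in nondormant meristems (4.33%). Over all tested genes these shares were 3.75% and 7.17%, and on the rest of chromosome 3 they were 3.55% and 6.87%. The 231 genes had a median log2 ratio of 0.17, with summed FPKM 1.02 times as high in dormant meristems. The 13 dormant-higher calls here ran from 1.19 to 682 FPKM in dormant meristems. From 17 to 18 Mb there were 6 such calls, the most of the 3 windows between. The locus from 17558348 to 17561928 was the most abundant of the 6, with a nondormant level of 111 and a dormant level of 327 FPKM by the authors' deposited table (2.95-fold, q = 0.00498). The locus from 17639488 to 17641508 had 13.6 and 44.0 FPKM by the authors' deposited table (3.24-fold, q = 0.00306). The other 4 differed less, by 2.14-fold to 2.43-fold. They are the loci starting at 17009561 (11.1 and 27.1 FPKM), 17220384 (34.3 and 74.99 FPKM), 17290377 (18.8 and 44.0 FPKM) and 17584623 (14.98 and 32.0 FPKM), and the authors' deposited table gives them q values of 0.0196 to 0.0399.

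The windows from 18 and from 19 Mb held 3 dormant-higher calls each, mostly at low levels apart from the abundant locus from 19011571. The locus from 18495497 to 18496712 had a nondormant level of 13.2 and a dormant level of 77.0 FPKM by the authors' deposited table (5.81-fold, q = 0.00179). Its neighbour from 18498080 to 18498676 was listed at 2.34 and 9.12 FPKM by the authors' deposited table (3.90-fold, q = 0.0306). Their ratios lay above 3-fold, as did those of the called genes of both groups, at levels far below those of the abundant loci. Further on, the locus from 18603025 to 18605854 had 1.40 and 5.63 FPKM by the authors' deposited table (4.01-fold, q = 0.0380). The locus from 19387298 to 19391906 had 38.5 and 88.4 FPKM by the authors' deposited table (2.30-fold, q = 0.0247). The locus from 19976309 to 19978582 was the least abundant of the called members, at 0.169 and 1.19 FPKM by the authors' deposited table (7.03-fold, q = 0.0306).

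The last megabase held 2 more dormant-higher calls, on either side of the second group. The locus from 20358767 to 20361205 lies just before it, with a nondormant level of 9.41 and a dormant level of 25.2 FPKM by the authors' deposited table (2.67-fold, q = 0.0261). The locus from 20877974 to 20879293 lies beyond it and had the largest ratio of the called members, 19.1-fold, from 0.433 to 8.26 FPKM by the authors' deposited table (q = 0.0182). That ratio rests on a nondormant value under 1 FPKM. Before the first group, the locus from 16099558 to 16103006 had the largest ratio of the tested but uncalled members with a mean of at least 1 FPKM. It had 47.1 and 148 FPKM by the authors' deposited table (3.13-fold, q = 0.0839).

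The 10 members called higher in nondormant meristems were spread along the stretch, 2 in each window of 1 Mb, and none lay within either group. Their median nondormant level was 18.7 FPKM, their median dormant level 4.25 FPKM, and their spans ran from 1691 to 8379 bp. The median fold, nondormant over dormant, was 3.21, against 4.05 for all genes called in that direction. PGSC0003DMG400010117, from 20017134 to 20020081, was the most abundant, with a nondormant level of 136 and a dormant level of 55.4 FPKM by the authors' deposited table (log2 ratio -1.29, q = 0.0317). PGSC0003DMG402015792, from 19915428 to 19922726, had 121 and 40.2 FPKM by the authors' deposited table (log2 ratio -1.59, q = 0.0118). It shares its printed interval with another gene, listed at 10.8 and 2.76 FPKM by the authors' deposited table and not called (log2 ratio -1.97, q = 0.722), and reads of the shared interval may have been split between them.

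The largest called difference in this direction belonged to the locus from 18591672 to 18593362, with a nondormant level of 9.01 and a dormant level of 0.742 FPKM by the authors' deposited table (12.1-fold higher in nondormant, q = 0.00179). It lies 9.66 kb before a locus called in the opposite direction, that from 18603025. The locus from 20268409 to 20271359 had 28.5 and 6.70 FPKM by the authors' deposited table (4.25-fold higher in nondormant, q = 0.00179). The locus from 17374913 to 17378494 had 31.3 and 9.18 FPKM by the authors' deposited table (3.41-fold higher in nondormant, q = 0.00409). For the locus from 17023195 to 17025355 the authors' deposited table lists 53.9 and 19.96 FPKM (2.70-fold higher in nondormant, q = 0.0219). Opposite calls thus also lay close together here, since the dormant-higher locus from 17009561 is 9.75 kb away.

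The remaining 4 nondormant-higher members stood below 7 FPKM in nondormant meristems. Neighbours from 16427599 to 16434456 and from 16436507 to 16444885 had nondormant levels of 2.73 and 4.90 FPKM and dormant levels of 0.584 and 1.70 FPKM by the authors' deposited table (q = 0.0201 and 0.0447). The locus from 18716639 to 18723556 had 4.30 and 1.47 FPKM by the authors' deposited table (q = 0.0399). The locus from 19839433 to 19844370 had 6.96 and 1.80 FPKM by the authors' deposited table (q = 0.0265). Among tested but uncalled members with a mean of at least 1 FPKM, the largest differences in this direction were those of the interval from 19915428, of the locus from 18372400 to 18378321 (1.80 and 0.409 FPKM, q = 0.303 in the authors' table) and of the locus from 16893979 to 16903271 (1.63 and 0.435 FPKM, q = 0.0974 in the authors' table).

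Calls by level were as follows. Of 36 tested members with a mean of both values of at least 100 FPKM, 11 were called, all 11 higher in dormant meristems. With at least 100 FPKM in either state as the limit instead, 13 of 41 members were called, 11 higher in dormant and 2 higher in nondormant meristems, the latter being the loci from 20017134 and from 19915428. On the rest of chromosome 3 the 108 genes with a mean of at least 100 FPKM had 9 dormant-higher and 7 nondormant-higher calls. With the limit in either state, 135 genes there had 12 dormant-higher and 9 nondormant-higher calls. Over all tested genes, 1815 reached that limit, with 172 dormant-higher and 192 nondormant-higher calls. At a mean from 10 to below 100 FPKM, 117 members had 9 dormant-higher and 5 nondormant-higher calls. On the rest of chromosome 3 the 836 genes of this level had 37 and 41. From 1 to below 10 FPKM, 105 members had 3 and 5, and 679 genes of the rest had 14 and 63. Below 1 FPKM, 14 members had 1 call, higher in dormant meristems, and 94 genes of the rest had 1 and 7. The difference between the stretch and the rest of the chromosome in these counts was not tested.

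The members with the status NOTEST were low or at 0. These 77 members reached at most 3.52 FPKM in the nondormant and 4.62 FPKM in the dormant state, and 27 were listed at 0 in both states. Another 8 were listed at 0 in dormant meristems only and 6 in nondormant meristems only. Tested members were a larger part of the genes in the stretch (77.5%) than on the rest of chromosome 3 (62.1%). None of the 272 tested members was listed at 0 in either state.

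The limits of the stretch are not set by a step in level. The gene just before its start, from 15992067 to 16001442, had a nondormant level of 18.5 and a dormant level of 26.7 FPKM by the authors' deposited table, and the first member, from 16010814 to 16012573, is listed at 0 in both. The last member, from 20986400 to 20987874, had 28.0 and 13.3 FPKM by the authors' deposited table, and the gene just after, from 21002390 to 21004157, had 8.08 and 8.93 FPKM. None of these 4 genes was called.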

How the data were processed

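The authors deposited 1 table of the whole series, which compares nondormant with dormant meristems gene by gene; the 4 samples of each group, from the tissue label, entered it in a way not given in the sources used here, as are aligner, build and annotation. Per the file headers it holds a deposited value per group, read as FPKM because its columns and status words match a Cuffdiff table, a deposited test statistic (a score, not used for any result), a p-value and a q-value. The authors' deposited log2 fold column holds cells that are not numbers, so log2 ratios were computed anew from both FPKM columns, without a pseudocount. Depth per sample is unknown, and no interval from depth is given.

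Members, groups and limits were chosen with earlier results of these data known. Calls are the authors' (deposited q of 0.05 or less, over all tested genes); no test was added. Sums and shares cover tested genes. Named members are all called ones, those of at least 500 FPKM in either state, the HIDATA loci, and the 3 tested but uncalled members with the largest ratio in each direction at a mean of at least 1 FPKM. Identifiers are printed for 2 called members per direction, those most abundant in the state where they are higher. Lists of genes by description could not be used, since 0 identifiers matched the reference table of 32873 genes. Alternatives changed the q threshold, low-value filters, pseudocounts, centring, shared intervals, the ends of the stretch and the most abundant members. The work used Python 3.11.15 with pandas 2.3.3, numpy 2.4.6 and, for intervals, scipy 1.17.1; matplotlib 3.10.9 drew the figures.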

Additional observations from a re-analysis of the deposited data

How the results depend on the processing

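The excess of summed dormant FPKM rests on the abundant genes of both groups. The median log2 ratio was 0.16 to 0.23 and the share of members higher in dormant meristems 57.0% to 64.4% under the alternatives run. Both stayed within their 95% intervals, 0.13 to 0.28 and 54.6% to 66.5%. These intervals cover counting error over genes only and treat neighbouring genes as independent. The alternatives share most genes with the main set, so staying within the intervals is no separate check. Without both groups, an alternative chosen after seeing the data, dormant-higher calls numbered 14 (5.58% of tested members) in place of 24 (8.82%). The shares of the dormant and nondormant sums were then 1.17% and 1.13%, with a ratio of 1.05. With the ends at 17 and 20 Mb the calls were 12 higher in dormant and 6 higher in nondormant meristems, the shares 0.755% and 0.699% and the ratio 1.09. With the ends at 15 and 22 Mb the shares were 5.10% and 2.17% and the ratio 2.37. At a q of 0.01 the calls were 11 and 3, with no share over all tested genes computed at that limit. Without the highest member the shares were 3.72% and 1.75% (ratio 2.15), and without the 5 highest 1.98% and 1.36% (ratio 1.47). Without genes of shared intervals they were 5.11% and 1.99% (ratio 2.59), and with every status the dormant share was 4.92%. That last setting enters the 2 HIDATA loci at their listed dormant value of 0, which is not read as a level. No sample could be left out and no paired analysis was possible because the table has 1 value per group. The 1-value design also leaves the spread behind each call unexamined.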
